A study of Mus musculus with 2 samples.

Results

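The tumour necrosis factor (TNF) superfamily was described in cells sorted as mouse mammary stroma. They came from a control and from a sample with stromal ablation of Gli2, a transcription factor of the hedgehog pathway. Genes were taken by symbol: every Tnfsf and Tnfrsf gene, together with Tnf, Lta, Ltb, Ltbr, Fas, Fasl, Cd40 and Cd40lg. That gave 37 of the 24646 gene symbols in the deposited table, 14 ligands and 23 receptors. Tnfrsf18 stood on 2 rows and the row with the higher mean signal was used, and each other gene stood on 1 row. Tnfsf12 and Tnfsf13 were not found under those symbols.

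RNA of 2 samples was hybridised to Affymetrix arrays, 1 sample per group, both from littermates 10 weeks old. One sample, Gli2ΔS, had Gli2 ablated in the stroma, and its control, Gli2WT, had Gli2 intact. In both, the cells were sorted for the green fluorescence that the Rosa26mTmG reporter shows where Fsp1-Cre is or has been active. Activity of the Fsp1 (S100a4) promoter, present or past, thus sets which cells were measured. The Fsp1 promoter is known to be active in fibroblasts and also in some leukocytes, and no label says whether animals were pooled. Signals are deposited log2 values, and each difference is Gli2ΔS minus Gli2WT on that scale. With 1 array per group there is no test between samples and no p-value, and the number of arrays limits the precision. Signals of different genes come from different probes and are not set against each other. The summed signals of marker lists given below do add them, and so weight each gene by its own brightness.

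The targeted gene, Gli2, had a log2 signal of 5.32 in Gli2ΔS cells and 5.94 in Gli2WT cells in the authors' deposited table of the comparison, a difference of -0.62. The value table deposited with the series gave 5.72 in Gli2ΔS cells and 5.94 in Gli2WT cells, a difference of -0.22. Each of these Gli2 signals lay below the median mean signal of all symbols, 6.34. Without detection calls, whether they stood above background cannot be told. Among symbols of like mean signal in the comparison table, the middle 95% of differences ran from -0.54 to 0.54. The -0.62 lay just below that range, and the -0.22 lay inside it. Of 41345 rows in both tables, 2 were apart by more than 0.006 on the log2 scale, that of Gli2 and that of Bmp7 (difference -0.65 in the comparison table and -0.35 in the value table). No source used here gives the reason. For the TNF superfamily genes the tables were at most 0.005 apart, which is rounding.

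TNF superfamily ligands are mostly membrane proteins that act as trimers, from the surface of the cell that carries them or after being shed. Their receptors fall by their cytoplasmic part into those with a death domain, which can start apoptosis, those that recruit TRAF adaptors and lead to NF-kB, and decoys that bind ligand without signalling. In the mammary gland the ligand RANKL (Tnfsf11) and its receptor RANK (Tnfrsf11a) are known for their part in the growth of alveoli under progesterone. Many other members are known from lymphocytes, where they carry costimulatory and survival signals.

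None of the differences of the family reached 2-fold, while 17 of the 37 genes lay within 0.2 of 0 (45.9%, against 63.0% of all symbols), and the other 20 were farther apart in either direction. Of 37 genes, 0 were higher in Gli2ΔS cells by 2-fold or more, where 0.304% of all symbols were, and 0 were lower by as much, where 0.933% of all symbols were. Such shares of 37 genes come to less than 1 gene in each direction. At 1.5-fold, 1 gene was higher, Tnfrsf4, which encodes the T cell costimulatory receptor OX40 (1.72% of all symbols were as much higher). Likewise 1 gene was lower by 1.5-fold, Tnfrsf12a, which encodes Fn14, the receptor of the cytokine TWEAK (3.3% of all symbols were as much lower).

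In direction, 22 of the 37 genes were higher in Gli2ΔS cells (59.5%, against 50.0% of all symbols) and 15 were lower. The median difference was 0.07 over the family and 0.00 over all symbols. A mean signal at or above the median of all symbols, 6.34, was found for 29 of the 37 genes, and of these 19 were higher (65.5%, against 53.0% of the 12342 symbols above that signal), with a median of 0.11 against 0.02. The other 8 genes (Tnfsf4, Tnfsf13b, Tnfsf15, Tnfsf18, Tnfrsf8, Tnfrsf11b, Tnfrsf13b and Tnfrsf17) had a mean signal below that median. There are no detection calls for any gene, and the median is not a measure of background. Whether these 8 dimmer genes stood above background cannot be told.

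**Figure D1:**
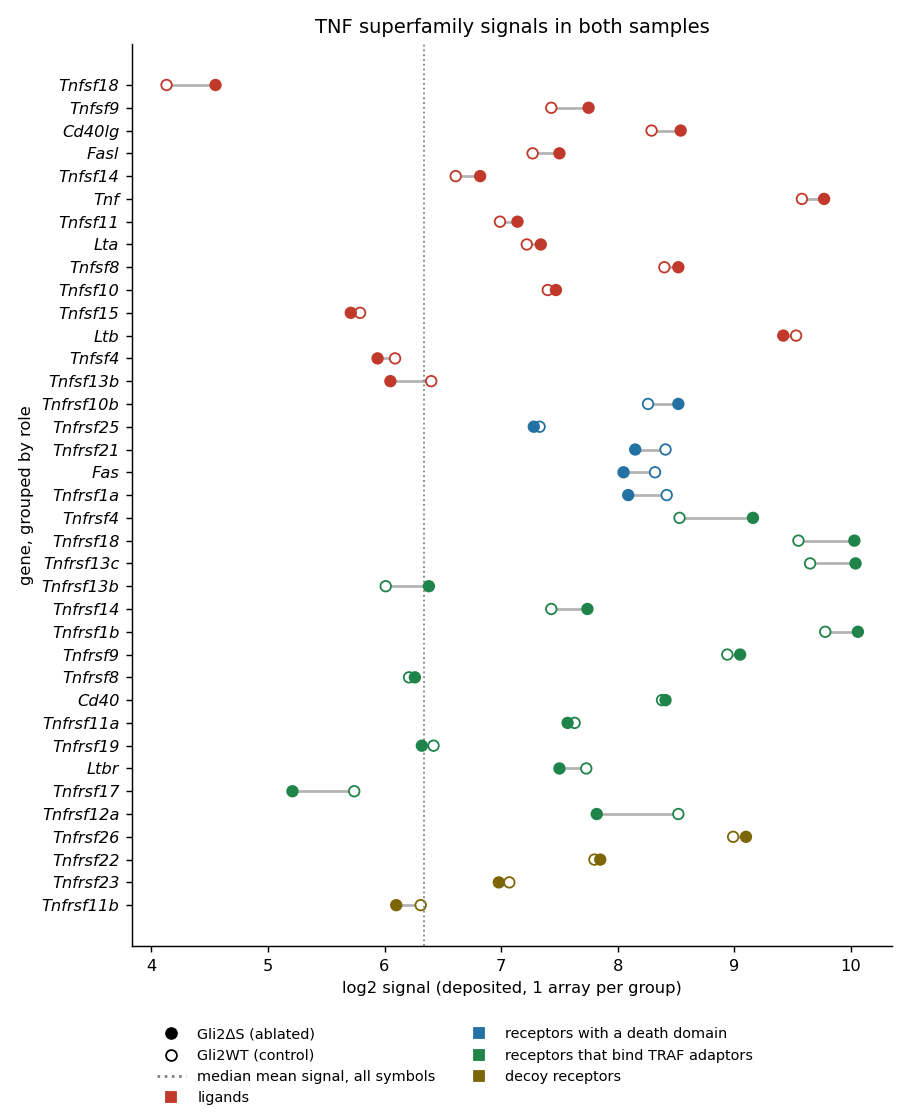
Log2 signals of the 37 TNF superfamily genes (x axis) in Gli2ΔS cells (filled points) and Gli2WT cells (open points), 1 array each, grouped by role and ordered by difference. Most ligands sit to the right in Gli2ΔS cells, while 4 of the 5 receptors with a death domain sit to the left, and the dotted line marks the median mean signal of all symbols, 6.34.

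The ligands were mostly higher in Gli2ΔS cells, by small amounts. Of 14 ligands 10 were higher and 4 lower, with a median of 0.135, a range from -0.35 to 0.42, and 0 at least 1.5-fold apart. Of all symbols 50.0% were higher. At 1.5-fold, 1.72% of all symbols were higher and 3.3% lower, so 14 genes would hold few such genes or none. Of the 10 ligands at or above the median signal, 9 were higher (53.0% of all symbols above that signal were). Their median was 0.17, and lymphotoxin beta was the exception.

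Among ligands that costimulate T cells, Tnfsf9 (4-1BB ligand) had a signal of 7.75 in Gli2ΔS cells and 7.43 in Gli2WT cells, a difference of 0.32. Tnfsf18, the ligand of the receptor GITR, had the highest difference of the ligands, 0.42, but at 4.55 in Gli2ΔS cells and 4.13 in Gli2WT cells it lay below the lower quartile of all symbols, 5.3. The OX40 ligand Tnfsf4 pointed the other way, at 5.94 in Gli2ΔS cells and 6.09 in Gli2WT cells. The differences of these 3 ligands had no common direction, and 2 of them rest on dim signals. Tnfsf8, the CD30 ligand, was 8.52 in Gli2ΔS cells and 8.40 in Gli2WT cells. Tnfsf15 (TL1A), which binds the receptor DR3, was 5.71 in Gli2ΔS cells and 5.79 in Gli2WT cells.

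Cd40lg, by which activated helper T cells stimulate B cells and other cells that carry CD40, had 8.54 in Gli2ΔS cells and 8.29 in Gli2WT cells, a difference of 0.25. Tnfsf14 (LIGHT), a ligand of the lymphotoxin beta receptor and of HVEM, had 6.82 in Gli2ΔS cells and 6.61 in Gli2WT cells. Both were higher in Gli2ΔS cells by less than 1.5-fold.

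Fasl, which kills cells that carry Fas and is made by cytotoxic lymphocytes, had a signal of 7.50 in Gli2ΔS cells and 7.27 in Gli2WT cells, a difference of 0.23. Tnfsf10 (TRAIL), the other death ligand, had 7.47 in Gli2ΔS cells and 7.40 in Gli2WT cells, a difference of 0.07. Tnf itself, the inflammatory cytokine that gave the family its name, had 9.77 in Gli2ΔS cells and 9.58 in Gli2WT cells, 1.14-fold higher. Lymphotoxin alpha (Lta), which shares the receptors of Tnf, was 7.34 in Gli2ΔS cells and 7.22 in Gli2WT cells. Lymphotoxin beta (Ltb), which anchors lymphotoxin alpha in the membrane, had 9.42 in Gli2ΔS cells and 9.53 in Gli2WT cells, a difference of -0.11, and so differed in direction from Tnf and Lta, its neighbours on the chromosome.

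RANKL (Tnfsf11) had a signal of 7.14 in Gli2ΔS cells and 6.99 in Gli2WT cells, a difference of 0.15. The B cell survival factor BAFF (Tnfsf13b) had the lowest difference of the ligands, -0.35, at 6.05 in Gli2ΔS cells and 6.40 in Gli2WT cells, a mean just under the median of all symbols. A row named BC096441, whose description in the file names both Tnfsf12 (TWEAK) and Tnfsf13 (APRIL) in full and which the symbol rule does not take, had 6.39 in Gli2ΔS cells and 6.90 in Gli2WT cells (difference -0.51), and which of the ligands gave that signal cannot be told.

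**Figure D2:**
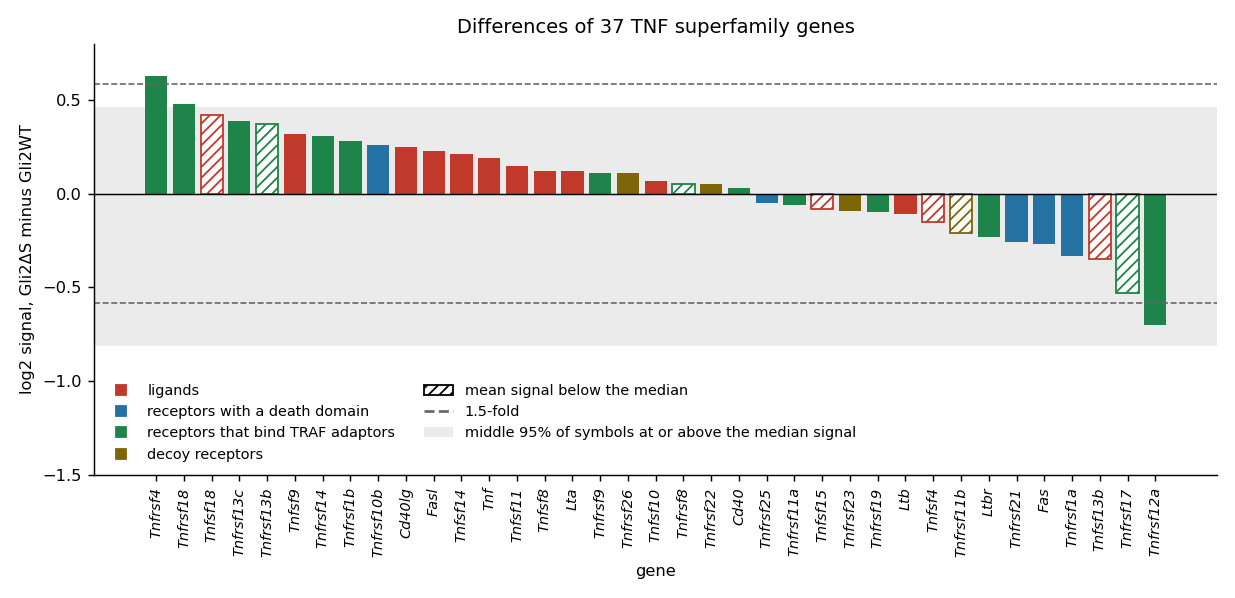
Differences of the 37 genes (y axis, log2 signal, Gli2ΔS minus Gli2WT), ordered from highest to lowest and coloured by role, with hatched bars for genes whose mean signal is below the median. Tnfrsf4 at 0.63 and Tnfrsf12a at -0.70 pass the dashed 1.5-fold lines, and the grey band from -0.81 to 0.46 holds the middle 95% of symbols at or above the median signal.

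Receptors with a death domain leaned the other way. Of 5 such receptors, all at or above the median signal, 4 were lower in Gli2ΔS cells and 1 was higher, with a median of -0.26, and 0 were at least 1.5-fold apart. Of all symbols at or above the median signal 44.5% were lower. At 1.5-fold, 1.72% of all symbols were higher and 3.3% lower, so 5 genes would hold few such genes or none. Tnfrsf1a, the widely expressed TNF receptor 1, had 8.09 in Gli2ΔS cells and 8.42 in Gli2WT cells, 1.26-fold lower. Fas had 8.05 in Gli2ΔS cells and 8.32 in Gli2WT cells, 1.21-fold lower. Tnfrsf21 (death receptor 6) had 8.15 in Gli2ΔS cells and 8.41 in Gli2WT cells, 1.20-fold lower. These 3 differences lay between -0.33 and -0.26. Tnfrsf25 (DR3), a receptor known from T cells, was 7.28 in Gli2ΔS cells and 7.33 in Gli2WT cells. The exception was the TRAIL receptor Tnfrsf10b, with 8.52 in Gli2ΔS cells and 8.26 in Gli2WT cells, 1.20-fold higher.

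The receptors that bind TRAF adaptors spanned the whole range of the family. Of 14, 9 were higher in Gli2ΔS cells and 5 lower, with a median of 0.08 and a range from -0.70 to 0.63, and 50.0% of all symbols were higher. Tnfrsf4 (OX40) had a signal of 9.16 in Gli2ΔS cells and 8.53 in Gli2WT cells, 1.55-fold higher. Tnfrsf18 (GITR), like OX40 a costimulatory receptor that regulatory T cells carry at rest, had 10.03 in Gli2ΔS cells and 9.55 in Gli2WT cells, 1.39-fold higher. These were the 2 genes of the family above the middle 95% of all symbols of like signal, compared in 20 bins. They are 5.41% of the 37 genes, where that range leaves out 5% by construction. The 5% is shared between the upper and the lower end, and no gene of the family lay below the range. The other row of Tnfrsf18, with which this one shares transcript accessions, had 6.31 in Gli2ΔS cells and 6.25 in Gli2WT cells, and averaging the rows gave a difference of 0.27 in place of 0.48.

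Tnfrsf4 and Tnfrsf18 stand next to each other on chromosome 4, with 0 protein-coding genes between them in RefSeq. The 250 bases before the RefSeq start of each are printed here because these neighbours had the highest differences at measurable signal, beside those of Tnfrsf12a, which had the lowest. The sequences are from RefSeq, build GRCm38.p6, and lie at chr4:156013445-156013694 (plus strand) for Tnfrsf4, chr4:156026072-156026321 (plus strand) for Tnfrsf18 and chr17:23677450-23677699 (minus strand) for Tnfrsf12a. Each is written 5′ to 3′ along the gene, and capitals mark GGGCGG, the GC box to which Sp1 family factors bind, on either strand.
Tnfrsf4: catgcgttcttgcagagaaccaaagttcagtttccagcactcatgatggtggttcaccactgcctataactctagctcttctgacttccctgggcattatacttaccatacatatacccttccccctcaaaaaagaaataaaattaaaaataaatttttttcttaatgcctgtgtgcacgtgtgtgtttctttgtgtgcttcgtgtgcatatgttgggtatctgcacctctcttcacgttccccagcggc
Tnfrsf18: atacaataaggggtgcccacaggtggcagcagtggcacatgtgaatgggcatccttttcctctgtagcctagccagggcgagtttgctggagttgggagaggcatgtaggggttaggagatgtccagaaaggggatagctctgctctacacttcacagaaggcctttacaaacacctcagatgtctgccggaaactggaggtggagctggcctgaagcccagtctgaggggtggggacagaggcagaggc
Tnfrsf12a: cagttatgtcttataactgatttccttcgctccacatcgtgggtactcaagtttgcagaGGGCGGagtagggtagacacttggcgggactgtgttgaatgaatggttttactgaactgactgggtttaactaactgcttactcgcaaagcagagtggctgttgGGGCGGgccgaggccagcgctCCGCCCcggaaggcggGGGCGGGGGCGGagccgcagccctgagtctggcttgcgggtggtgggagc
In the whole windows, which run on to 50 bases after the start, Tnfrsf12a held 5 GC boxes and 20 CpG dinucleotides, whereas Tnfrsf4 and Tnfrsf18 held 0 GC boxes and 6 and 4 CpG dinucleotides. The median window held 7 CpG dinucleotides. GC boxes, a motif chosen after the sequences were seen, were in the windows of 15 of the 29 genes with one in the table (51.7%, against 38.2% of all genes). Tnfrsf11a, with a difference of -0.06, also held 5, and Tnfrsf13c and Tnfrsf1b, at 0.39 and 0.28, held 2 each.

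A window was in the RefSeq table for 29 of the 37 genes, in 33 windows. The Gli motif GACCACCCA was in the windows of 0 of the 29 genes, where 0.289% of all genes in the table held it. An NF-kB motif of GGG, 2 bases of any kind and TTTCC, searched on both strands like the others, was in the windows of 3 of 29 genes, where 1.89% of all genes held it. The shorter NF-kB form GGGNNTTCC was in 2 of 29, where 6.58% of all genes held it, and in Tnfrsf9 it overlapped the longer one. The longer matches were GGGGATTTCC in Tnfrsf9, GGAAAGTCCC in Ltb and GGAAAAGCCC in Tnfrsf25, the last 2 written on the plus strand of the gene with the motif on the other strand. The differences of these 3 genes were 0.11 for Tnfrsf9, -0.11 for Ltb and -0.05 for Tnfrsf25. A match of letters is a description and not a binding site.

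Of the receptors that B cells use, Tnfrsf13c, the BAFF receptor, had a signal of 10.04 in Gli2ΔS cells and 9.65 in Gli2WT cells, 1.31-fold higher. Tnfrsf13b (TACI), which also binds BAFF, had 6.38 in Gli2ΔS cells and 6.01 in Gli2WT cells, a difference of 0.37 at a mean below the median signal. Tnfrsf17 (BCMA), the BAFF-family receptor known from plasma cells, was lower, at 5.21 in Gli2ΔS cells and 5.74 in Gli2WT cells, also below the median. The BAFF-binding receptors had differences of 0.39, 0.37 and -0.53, beside -0.35 for BAFF itself. Cd40, the receptor of B cells and antigen-presenting cells for Cd40lg, was 8.41 in Gli2ΔS cells and 8.38 in Gli2WT cells, a difference of 0.03 that turned slightly negative after quantile scaling (-0.005) and after loess (-0.0095).

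Tnfrsf1b, the TNF receptor 2 of leukocytes and regulatory T cells, had a signal of 10.06 in Gli2ΔS cells and 9.78 in Gli2WT cells, 1.21-fold higher. Tnfrsf14 (HVEM), the receptor of LIGHT, had 7.74 in Gli2ΔS cells and 7.43 in Gli2WT cells, 1.24-fold higher. Tnfrsf9 (4-1BB), a receptor of activated T cells, had 9.05 in Gli2ΔS cells and 8.94 in Gli2WT cells, a smaller difference than that of its ligand. Tnfrsf8 (CD30) was 6.26 in Gli2ΔS cells and 6.21 in Gli2WT cells.

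Tnfrsf12a (Fn14), which fibroblasts, endothelium and epithelium express on injury and growth factor stimulation, had a signal of 7.82 in Gli2ΔS cells and 8.52 in Gli2WT cells, 1.62-fold lower. Its difference of -0.70 was the lowest of the family, yet it lay inside the middle 95% of symbols of like signal, whose lower bound was -0.89, and 3.06% of symbols at or above the median signal were lower still. Ltbr, the lymphotoxin beta receptor of stromal and myeloid cells, had 7.50 in Gli2ΔS cells and 7.73 in Gli2WT cells, 1.17-fold lower. RANK (Tnfrsf11a) had 7.57 in Gli2ΔS cells and 7.63 in Gli2WT cells, a difference of -0.06. Tnfrsf19 (TROY) was 6.32 in Gli2ΔS cells and 6.42 in Gli2WT cells, close to the median signal of all symbols.

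Of 4 decoy and related receptors 2 were higher and 2 lower, within -0.21 and 0.11. Tnfrsf11b, osteoprotegerin, a secreted decoy of RANKL, had 6.10 in Gli2ΔS cells and 6.31 in Gli2WT cells, a difference of -0.21 at a mean below the median signal. Tnfrsf22 and Tnfrsf23, decoy receptors of TRAIL found in the mouse, had differences of 0.05 (7.85 in Gli2ΔS cells and 7.80 in Gli2WT cells) and -0.09 (6.98 in Gli2ΔS cells and 7.07 in Gli2WT cells). Tnfrsf26, their neighbour on chromosome 7, had 9.10 in Gli2ΔS cells and 8.99 in Gli2WT cells.

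**Figure D3:**
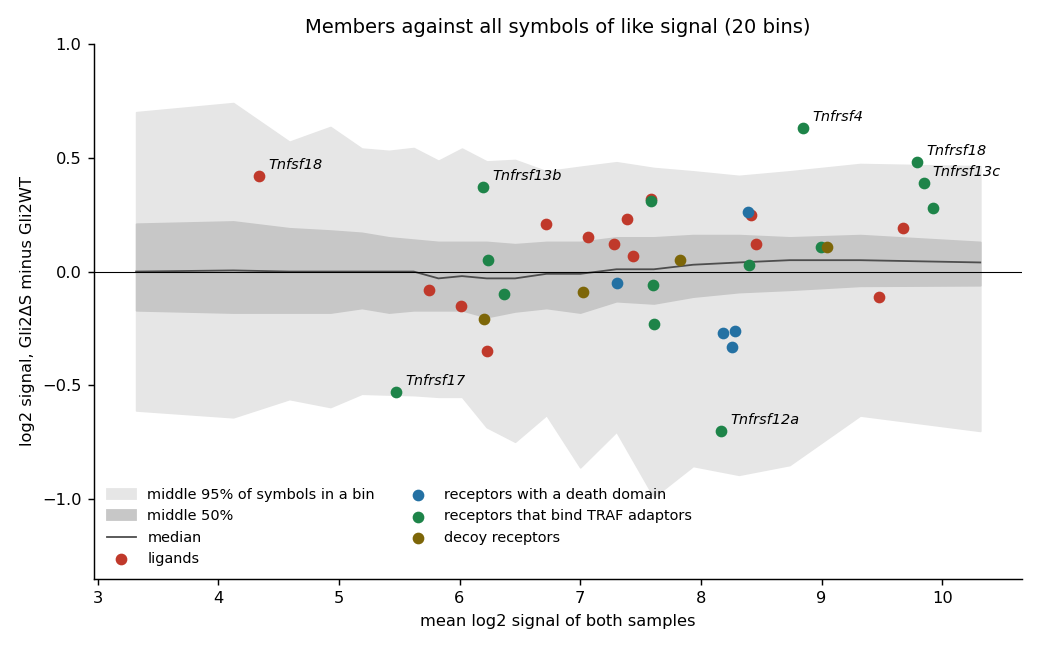
Difference (y axis, log2 signal, Gli2ΔS minus Gli2WT) against mean log2 signal (x axis) for the 37 genes, coloured by role, over the median, the middle 50% and the middle 95% of all 24646 symbols in 20 bins of mean signal. Tnfrsf4 and Tnfrsf18 lie above the 95% band, and Tnfrsf12a lies within it.

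Ligands and receptors that bind each other did not share a direction as a rule. Of 23 ligand and receptor pairs, listed from textbook knowledge, 12 had the same direction, with both higher in 9 and both lower in 3. In 8 pairs the ligand was higher and the receptor lower, and in 3 the ligand was lower and the receptor higher. Tnf and Lta were higher with their receptor Tnfrsf1b but not with Tnfrsf1a, and LIGHT was higher with HVEM but not with Ltbr. Fasl and Fas stood at 0.23 and -0.27, and OX40 ligand and OX40 at -0.15 and 0.63. The pairs are not independent, since ligands and receptors recur in them.

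**Figure D4:**
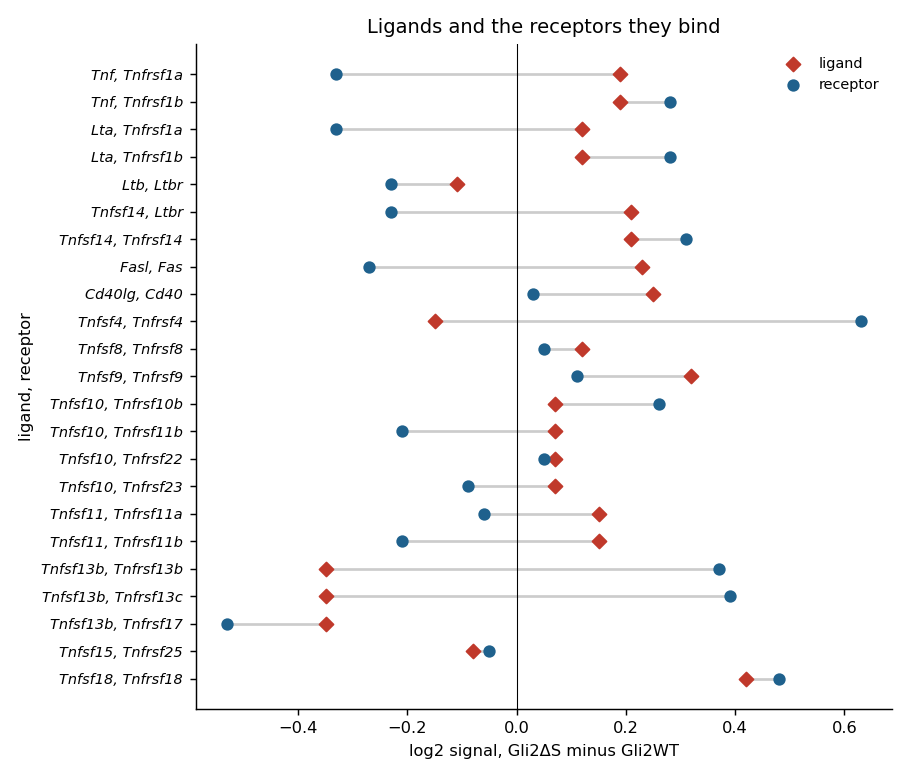
Differences (x axis, log2 signal, Gli2ΔS minus Gli2WT) of 23 ligands and receptors that bind each other, with diamonds for the ligand and circles for the receptor of each pair. The points lie on the same side of 0 in 12 pairs, and they lie farthest apart for Tnfsf4 and Tnfrsf4, at -0.15 and 0.63.

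Neighbouring genes of the family were compared in RefSeq order. Of the 37 genes, 9 are on chromosome 4, of which 7 were higher, and 7 are on chromosome 17, of which 4 were higher. The receptors Ltbr and Tnfrsf1a, with 1 protein-coding gene between them on chromosome 6, were both lower, at -0.23 and -0.33. Tnfsf9 and Tnfsf14, on both sides of Cd70 on chromosome 17, were both higher, at 0.32 and 0.21, and Cd70 had a difference of 0.36 at a signal of 4.52 in Gli2ΔS cells and 4.16 in Gli2WT cells. On chromosome 1 the adjacent ligands Tnfsf4, Tnfsf18 and Fasl had differences of -0.15, 0.42 and 0.23.

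Downstream of the receptors, the signalling machinery held 0 genes at least 1.5-fold apart. Of all symbols 1.72% were as much higher and 3.3% as much lower, so lists of this size would hold few such genes or none. Among 26 genes known to be induced by TNF, 9 were lower by as much. Of 22 adaptors and proximal kinases 15 were higher in Gli2ΔS cells and 7 lower, with a median of 0.07 and 0 at least 1.5-fold apart. Traf4, an adaptor of the TRAF family, came nearest, at 9.87 in Gli2ΔS cells and 9.32 in Gli2WT cells (difference 0.55), ahead of Birc2, a ubiquitin ligase of the TNF receptor complex (0.40), and Fadd, the adaptor of death receptors (0.33). Tradd, the adaptor of Tnfrsf1a, was at -0.32, in the same direction as its receptor. The direction of Fadd was opposite to that of Fas (-0.27) and the same as that of Tnfrsf10b (0.26). Of 13 NF-kB subunits, inhibitors and kinases 7 were higher and 5 lower, with a median of 0.02 and 0 at least 1.5-fold apart. The inhibitor and NF-kB target Nfkbia had 11.01 in each sample, and the differences farthest from 0 were those of Bcl3 (-0.33), Rel (0.28) and Nfkbie (0.28).

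Of 26 genes induced by TNF, 20 were lower in Gli2ΔS cells and 6 higher, with a median of -0.28. Lower by at least 1.5-fold were 9 of them (3.3% of all symbols were), 5 of these by at least 2-fold (0.933% of all symbols were), and 0 were as much higher. The stromal protease Mmp3 (7.69 in Gli2ΔS cells and 10.32 in Gli2WT cells) was 6.19-fold lower, and Tnfaip6, a hyaluronan-binding protein (8.73 in Gli2ΔS cells and 10.37 in Gli2WT cells), was 3.12-fold lower. Csf1 (-1.53), Ccl2 (-1.31) and Il6 (-1.22), a growth factor, a chemokine and a cytokine that fibroblasts make, were lower too. Smaller were the differences of Ccl7 (-0.82), Cxcl1 (-0.79), the prostaglandin synthase Ptgs2 (-0.76) and Tnfaip2 (-0.70). In contrast Tnfaip3 (A20), an inhibitor of NF-kB signalling that TNF induces in most cells including lymphocytes, was 11.73 in Gli2ΔS cells and 11.40 in Gli2WT cells, a difference of 0.33. Under the other symbols of the family (Cd70, Cd27, Ngfr, Eda, Edar, Eda2r and Relt) 2 of 7 genes were higher and 5 lower, from -0.36 for Eda2r to 0.36 for Cd70.

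Several cell type marker lists held genes at least 1.5-fold apart, and the T cell, B cell and epithelial lists held 0. Of all symbols 1.72% were as much higher and 3.3% as much lower, so lists this short would hold few such genes or none. All 12 fibroblast markers were lower in Gli2ΔS cells (median -1.34), 9 by at least 2-fold (0.933% of all symbols were). Their summed linear signal was 8189 in Gli2ΔS cells and 14892 in Gli2WT cells. That sum leans on Dcn, at 12.01 in Gli2ΔS cells and 12.51 in Gli2WT cells. The 6 endothelial markers were all lower (median -0.62, summed signal 2408 in Gli2ΔS cells and 3243 in Gli2WT cells), and smooth muscle and pericyte markers in 6 of 6 (median -0.375, summed signal 799 in Gli2ΔS cells and 1165 in Gli2WT cells). Of 12 T cell markers 11 were higher (median 0.235, summed signal 20035 in Gli2ΔS cells and 16606 in Gli2WT cells), with Foxp3, the factor that defines regulatory T cells, at 9.73 in Gli2ΔS cells and 9.18 in Gli2WT cells. All 10 NK cell markers were higher (median 0.34, summed signal 6233 in Gli2ΔS cells and 4995 in Gli2WT cells). Tnfrsf4, Tnfrsf18, Tnfrsf1b, Cd40lg, Fasl and Tnfsf9 were higher alongside the T and NK cell markers, and lower alongside the fibroblast and endothelial markers were Tnfrsf12a, Tnfrsf1a, Fas, Ltbr, Tnfrsf21 and 20 of the 26 TNF-induced genes. The members did not all follow such a split. Ltb (-0.11) and Tnfrsf25 (-0.05), a receptor known from T cells, were lower, and the death domain receptor Tnfrsf10b (0.26) was higher. Macrophage and dendritic cell markers were mostly lower too (median -0.13). The part of any of these cell types in the results was not tested, and fewer cells of a type cannot be told apart from less RNA per cell.

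B cell markers were higher in 7 of 8 cases by little (median 0.04, summed signal 11185 in Gli2ΔS cells and 11047 in Gli2WT cells), less than the 0.39 of Tnfrsf13c. Of 5 plasma cell markers 3 were lower and 2 higher (median -0.25, and -0.11 with the rows of a symbol averaged). The antibody joining chain Igj was at -1.33, while the transcription factors Irf4 and Prdm1 were at 0.45 and 0.25. The summed signal of the 5 was 3169 in Gli2ΔS cells and 4575 in Gli2WT cells, and without Igj, a choice made after the values were seen, it was 2193 in Gli2ΔS cells and 2122 in Gli2WT cells. Tnfrsf17 stood at -0.53. Macrophage and dendritic cell markers were lower in 10 of 12 cases (median -0.13, summed signal 4403 in Gli2ΔS cells and 5005 in Gli2WT cells). Luminal epithelial markers were higher in 3 of 6 cases (median 0.05, summed signal 3520 in Gli2ΔS cells and 3437 in Gli2WT cells), and the 4 basal epithelial markers all lay below the median signal (summed signal 236 in Gli2ΔS cells and 243 in Gli2WT cells). None of the markers on these lists lay below the lower quartile of all symbols. By mean signal, all 12 fibroblast, 12 T cell and 8 B cell markers were at or above the median of all symbols. So were 9 of 10 NK cell and 5 of 6 luminal epithelial markers. That median is not a measure of background. S100a4, the gene whose promoter drives the Cre, had 7.98 in Gli2ΔS cells and 8.16 in Gli2WT cells.

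**Figure D5:**
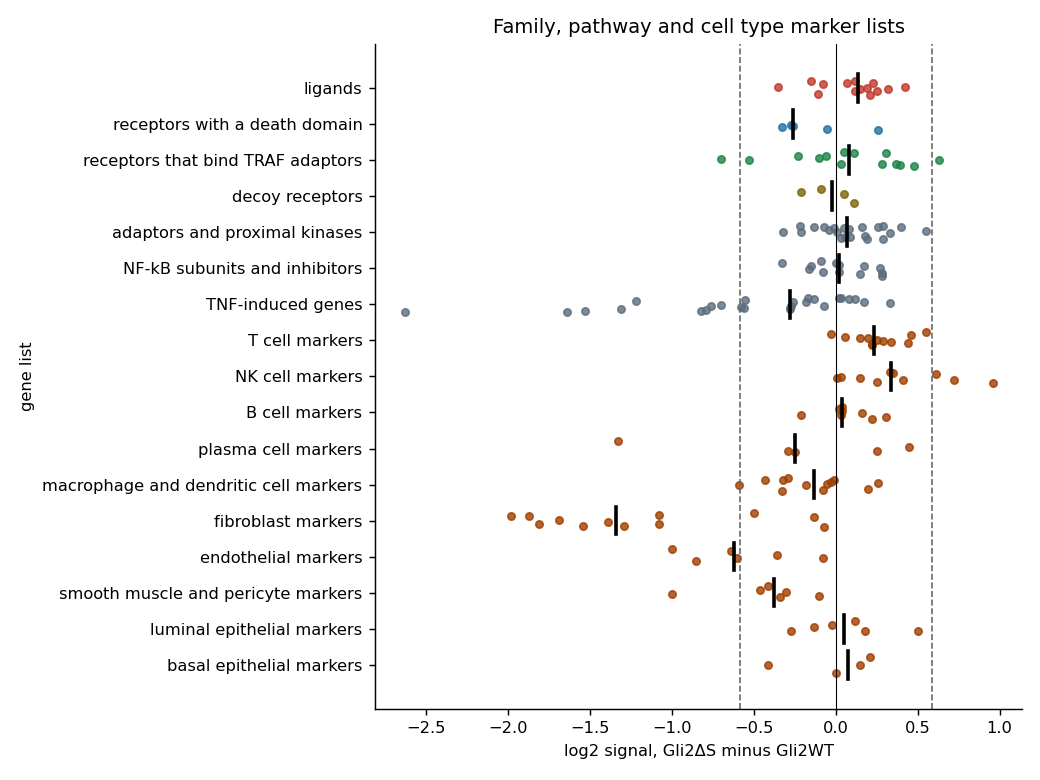
Difference of each gene (x axis, log2 signal, Gli2ΔS minus Gli2WT) in the family by role, in the pathway lists and in the cell type marker lists, with a black bar at the median of each list and dashed lines at 1.5-fold. Fibroblast markers and TNF-induced genes reach far to the left, though 6 of the 26 TNF-induced genes lie right of 0 (medians -1.34 and -0.28), T and NK cell markers lie to the right (0.235 and 0.34), and the family lies between them.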

How the data were processed

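RNA was measured in 2 sorted stromal samples, 1 Gli2ΔS (ablated) and 1 Gli2WT (control). Extraction used Trizol and an RNeasy kit, per the labels' protocols, and the RNA was made into biotinylated cRNA for Affymetrix arrays, and the submitters' processing notes name Transcriptome Analysis Console, with no version. The authors deposited log2 signals (bi-weight averages, per the file headers) for 41345 transcript clusters. They also deposited a signed linear fold of Gli2WT over Gli2ΔS, treated here as a score because it turns negative where Gli2ΔS cells are higher, and used as an alternative. A second deposited table holds log2 signals of the same clusters with more decimals. No source used here gives the array design, the normalization, the background correction or the build. A shift of every gene in 1 direction could be hidden by normalization.

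For each of 24646 symbols the row of highest mean signal was kept and the difference, Gli2ΔS minus Gli2WT, was taken. No filter on low signal was applied to the counts, since a filter on the higher signal favours genes that differ. A mean of both signals of at least 6.34, the median, marks genes as measurable in the text. That mark is a convention and not a detection limit. Genes were counted at 2-fold and 1.5-fold. Each list entry was matched by symbol or, for 1 gene, by a RefSeq synonym (assembly GRCm38.p6), and Tnfsf12 and Tnfsf13 were not found. The members, lists and size rules were chosen with earlier results of these data known. Genes were named by a rule: members at least 1.5-fold apart, those with the highest signals or the differences farthest from 0 and their partners, and in each pathway list those at least 1.5-fold apart and the farthest 3. Every other member is given as well, and Tnfaip3, Nfkbia, Cd70, BC096441 and the GC box were singled out after their values were seen. The farthest 3 of a pathway list were sought at or above the median signal. Tradd and Eda2r are named outside that rule too. Promoter windows came from RefSeq, and protein sequences were not used here. Row choice and counts were tested on simulated data. Alternatives were 3 scalings, row averages, the deposited fold, the second table, 3 signal filters and other folds. Software was matplotlib 3.10.9, statsmodels 0.14.6, pandas 2.3.3 and numpy 2.4.6 under Python 3.11.15.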

Additional observations from a re-analysis of the deposited data

How the results depend on the processing

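Of the 37 differences, 36 kept their sign under every alternative that gave a value for them, and Cd40 alone changed sign (0.03, from -0.0095 after loess and -0.005 after quantile scaling to 0.04). Few alternatives could turn a sign. The signal filters drop genes without changing a difference, and the median over all symbols was already 0. The deposited fold and the second table differ by rounding, and row averages touch Tnfrsf18 alone. Only quantile scaling and loess could move the other genes, so the kept signs say little about robustness. The difference of Tnfrsf18 was 0.27 with its rows averaged. The counts of 0 and 0 members at least 2-fold apart remained 0 at every scaling, filter and table, and became 1 higher and 1 lower at 1.5-fold. The median over TRAF-binding receptors was 0.28 where the mean signal had to reach the 75th percentile, which leaves fewer genes, and under that filter the medians were -0.57 over TNF-induced genes, -0.02 over plasma cell, -0.36 over endothelial and -0.73 over smooth muscle and pericyte markers. Medians near 0 changed sign: decoy receptors from -0.02 to 0.05 or 0.08 under the signal filters, NF-kB genes from 0.02 to -0.02 after quantile scaling or loess, B cell markers from 0.04 to -0.0057 after loess, luminal markers from 0.05 to -0.005 with rows averaged, and family genes under other symbols from -0.04 to 0.05 at the 75th percentile. The summed signal of plasma cell markers in Gli2ΔS over Gli2WT cells was 0.69, and 1.03 without Igj, an alternative chosen after seeing the data. Over all symbols the counts of 75 higher and 230 lower became 39 higher with the mean signal at least the median, 46 higher with the higher signal at least its median, 23 higher and 107 lower with the mean signal at least the 75th percentile, 424 higher and 814 lower at 1.5-fold, and 16 higher and 42 lower at 3-fold, as fewer symbols or other folds imply. Alternatives were compared against a spread of 0.19, the scaled median absolute deviation over symbols at or above the median signal, in place of a replicate SD. No paired analysis was possible because there is 1 sample per group. Dim signals limit what can be said of the 8 genes below the median.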

Other observations

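Differences of more than 0.2 in either direction were found for 15 of the 29 TNF superfamily genes at or above the median signal (51.7%), against 32.3% of the 12342 symbols above that signal. Genes of 1 family measured on the same 2 arrays are not independent replicates, so this share is a description of the arrays.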
